A study of Mus musculus with 3 samples.

Results

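The genes described here encode the proteins that copy chromosomes and the proteins that pull the copies apart. They were taken by symbol as a list of 40, with 18 genes of DNA replication and 22 genes of mitosis. All 40 were among the 31053 genes of the count table. All 40 were also found under the same symbol, as protein-coding genes, in GENCODE M21, the mouse annotation on GRCm38.

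The cells came from C57Bl/6 mice, bought at 6 weeks of age, and from the distal colon together with the anus, a stretch that holds both the columnar epithelium of the colon and the squamous epithelium of the anus. The day 0 library was made from 5 untreated mice with normal histology. The day 7 and day 42 libraries were each made from 5 mice that drank 3% dextran sulfate sodium (DSS), which damages the colonic epithelium, for 6 days from day 0. The labels call the tissue of day 7 severely colitic and that of day 42 recovered. Tissue of the 5 mice was pooled before digestion with trypsin and removal of dead cells, so each day was 1 droplet library of single-cell 3' RNA and the spread between mice was not measured. No library was from untreated mice at the later days, so time and DSS cannot be told apart.

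A cell duplicates its DNA once per division and then divides it. The Mcm2 to Mcm7 helicase is loaded on origins by Cdc6 and Cdt1 and is activated with the help of Gins2. Pcna clamps the polymerases to DNA, Fen1 trims the lagging strand, and Uhrf1 carries DNA methylation over to the new strand. Rrm1, Rrm2, Tyms, Tk1 and Dut make or clean the deoxynucleotide supply, and Slbp processes histone messages. In mitosis Cdk1 acts with the cyclins Ccna2, Ccnb1 and Ccnb2. Aurka, Aurkb, Plk1 and Bub1 are mitotic kinases, Birc5 is a partner of Aurkb, and Cenpa, Cenpe and Cenpf sit at the kinetochore. Tpx2, Kif11, Kif23, Nusap1, Hmmr and Prc1 build the spindle or the midbody, Top2a untangles sister chromatids, Ube2c and Cdc20 serve the ubiquitin ligase that ends mitosis, and Mki67 coats mitotic chromosomes. Transcripts of the replication genes are known to build up before and during DNA synthesis, and those of the mitosis genes between synthesis and division. In the squamous lining the dividing cells lie in and near the basal layer, and in the colon they lie in the lower crypt.

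The promoters of both lists are shown because textbook accounts tie them to different sequence elements, E2F sites for replication genes and the CHR (cell cycle genes homology region), often with CCAAT boxes, for mitosis genes. RefSeq promoters of GRCm38.p6 (250 bases before to 50 after a gene's start) were at hand for 35 of the 40 genes, 16 replication and 19 mitosis. Mcm4, Gins2, Ccna2, Aurkb and Tpx2 had none. Letters were searched on both strands: for the E2F type TTCGCGC as the first form, TTGGCGC as the second form, TTCCCGC as the third form and TTGCCGC as the last form, for the CHR TTTGAA as the first form and TTCGAA as the other form, and for the CCAAT box its name. Matches of different kinds can overlap. Over the whole of these promoters, an E2F-type match was present in 10 of 16 replication genes (62.5%), 4 of 19 mitosis genes (21.1%) and 10.9% of all 27025 genes of the table. A CHR match was present in 3 of 16 replication genes (18.8%), 15 of 19 mitosis genes (78.9%) and 21.7% of all genes. CCAAT was present in 10 of 16 (62.5%), 17 of 19 (89.5%) and 41.1%. A match of letters is not evidence of binding.

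The following lines give the 120 bases just before the start of 3 replication genes with E2F-type matches and of 4 mitosis genes with CHR matches, 5′ to 3′ on the strand of the gene. Capitals mark matches to the letters above on either strand. The windows lie at chr1:128359706-128359825 (Mcm6, minus strand), chr7:102441575-102441694 (Rrm1, plus), chr17:56303217-56303336 (Uhrf1, plus), chr7:135716380-135716499 (Mki67, minus), chr11:99024190-99024309 (Top2a, minus), chr10:69352913-69353032 (Cdk1, minus) and chr4:118437344-118437463 (Cdc20, minus).
Mcm6: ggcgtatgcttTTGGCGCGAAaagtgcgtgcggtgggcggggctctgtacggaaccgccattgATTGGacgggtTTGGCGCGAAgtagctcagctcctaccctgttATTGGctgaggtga
Rrm1: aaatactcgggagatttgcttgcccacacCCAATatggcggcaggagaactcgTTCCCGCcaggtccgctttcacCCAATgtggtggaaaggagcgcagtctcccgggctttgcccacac
Uhrf1: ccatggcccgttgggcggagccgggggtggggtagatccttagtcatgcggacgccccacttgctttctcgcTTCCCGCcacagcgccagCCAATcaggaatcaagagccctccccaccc
Mki67: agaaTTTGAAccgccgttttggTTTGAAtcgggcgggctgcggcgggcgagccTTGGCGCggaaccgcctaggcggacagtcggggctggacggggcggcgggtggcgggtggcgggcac
Top2a: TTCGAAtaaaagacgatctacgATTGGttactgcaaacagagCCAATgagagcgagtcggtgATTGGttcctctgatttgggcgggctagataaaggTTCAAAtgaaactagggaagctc
Cdk1: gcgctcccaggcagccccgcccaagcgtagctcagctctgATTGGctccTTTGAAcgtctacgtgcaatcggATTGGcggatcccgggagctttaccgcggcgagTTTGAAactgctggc
Cdc20: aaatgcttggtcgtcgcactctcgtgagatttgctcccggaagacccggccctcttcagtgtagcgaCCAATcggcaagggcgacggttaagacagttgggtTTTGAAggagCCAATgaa
Mcm6 held 4 E2F-type matches in this window, which lie in 2 overlapping pairs, and Rrm1 and Uhrf1 held 1 each. Mki67, Top2a and Cdk1 held 2 CHR matches each and Cdc20 held 1. The windows printed were chosen for these matches. In the same window Mcm5, Pcna, Rrm2 and Tyms held no E2F-type match. Ccnb1 held 1 E2F-type and no CHR match, and the other promoter of Uhrf1 held no E2F-type match there.

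The libraries held 11037, 14376 and 11667 cells at day 0, day 7 and day 42, with median unique molecular identifiers (UMIs, each 1 captured RNA molecule) of 5995, 6217.5 and 5708 per cell. Between 40 and 55 cell barcodes were shared by any pair of libraries. The deposited cell table gave each cell 1 of 29 cluster numbers and 1 of 14 names. Keratinocytes were taken as the squamous class, with 3316, 9035 and 7970 cells, and colonocytes, secretory colonocytes and enteroendocrine cells as the columnar class, with 4306, 1062 and 1680 cells. Levels are UMIs summed over the cells of a group and scaled to the total of that group and library, as counts per 1e6 UMIs (CPM). The 8 keratinocyte markers summed to 15822, 18019 and 23711 CPM in the squamous class on the 3 days and to 1342, 3145 and 2535 CPM in the columnar class. The 8 colonocyte markers summed to 409, 347 and 760 CPM in the squamous and 12260.5, 20253 and 16433 CPM in the columnar class. Intervals of levels and shares are exact Poisson or Clopper-Pearson 95% intervals and cover counting error only. An interval after a median is taken from the ordered ratios of the genes of the list. These genes vary together, so it describes their spread and is not an error of the measurement. In summed RNA, fewer cells of a kind and less RNA per cell cannot be told apart. With 1 library per day no test was possible, so differences between days are differences between these 3 libraries.

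Over all cells, the replication genes summed to 562 CPM on day 0 (557 to 567), 990 on day 7 (985 to 995) and 623 on day 42 (617 to 628). The mitosis genes summed to 1008 CPM (1002 to 1015), 1566 (1560 to 1573) and 1173 (1166 to 1181). Both lists were thus higher at day 7 than in either other library. Where these transcripts lay differed by day. At day 0 the colonocytes of cluster 7 held 47.2% of the replication and 43.8% of the mitosis UMIs, and the keratinocytes of cluster 3 held 10.8% and 29.4%. At day 7 cluster 3 held 66.0% and 73.0%, and cluster 7 held 0.834% and 1.11%. At day 42 cluster 3 held 27.5% of the replication and 65.5% of the mitosis UMIs, while the keratinocytes of cluster 1 held 44.5% of the replication and 9.74% of the mitosis UMIs. The clusters are the depositors' own and may have been drawn with these genes, so a high level in a cluster is a description of that cluster and not a finding about it.

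**Figure D1:**
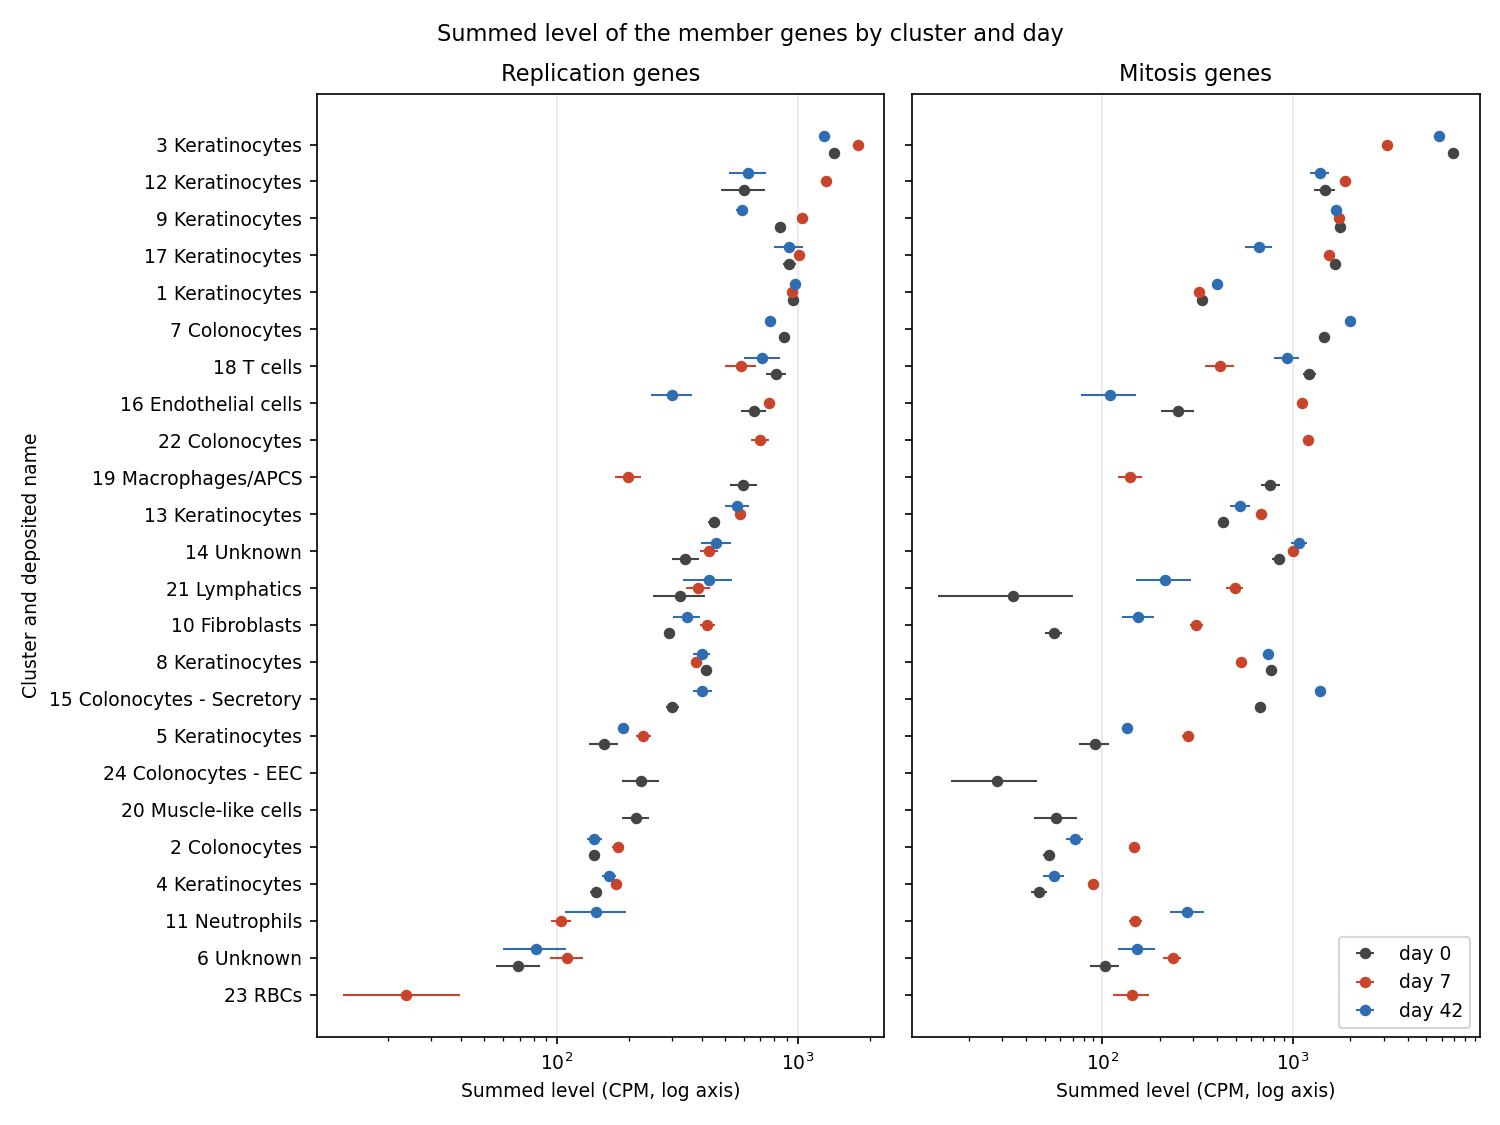
Summed level (CPM, log axis) of the 18 replication genes (left) and 22 mitosis genes (right) in each cluster and library with at least 50 cells; colours are days and bars are 95% Poisson intervals. Cluster 3 stands highest in both panels, cluster 1 is high on the left and low on the right, and cluster 3 is lower in mitosis genes on day 7 (3113 CPM) than on day 0 (6887).

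In the squamous class the replication genes were higher at day 7 than at day 0. They summed to 587 CPM on day 0 (579 to 595), 1112 on day 7 (1106 to 1117) and 674 on day 42 (667 to 680). Days were compared gene by gene as the log2 ratio of CPM with 10 CPM added to both, over genes that reached 5 CPM in at least 1 of the libraries compared. All 18 replication genes passed that filter at day 7 against day 0 and all 18 had a ratio above 0, with a median of 0.63 (range 0.36 to 1.85; 0.53 to 0.85 as the interval of the median over genes) against -0.03 over all genes. Of these, 1 was at least 2-fold higher, beside 1.15% of the 10088 genes tested.

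The gene past 2-fold was Rrm2 (chr12:24708241-24714146, plus strand), the small subunit of ribonucleotide reductase, whose supply is a limiting step for deoxynucleotides. Rrm2 stood at 25.1 CPM on day 0 (23.4 to 26.8), 116 on day 7 (115 to 118) and 42.7 on day 42 (41.1 to 44.4). It was detected in 10.2%, 33.1% and 17.2% of squamous cells. The day 7 library was far above both others, and day 42 lay above day 0 beyond counting error. Rrm2 was higher at day 7 than at day 0 in 8 of the 9 keratinocyte clusters compared. It went from 38.1 to 151 CPM in cluster 12 and from 106 to 225 CPM in cluster 3. In cluster 17 it was not higher, at 48.6 and 47.0 CPM. The clusters of a day share a library, so they are not repeats of the difference between days. Rrm2 was also picked for its large ratio in these same cells, and no such count is given for all genes.

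Among the other replication genes the largest ratios at day 7 in squamous cells were those of Dut, which removes deoxyuridine triphosphate, from 78.1 to 162 CPM (0.96), and of the helicase subunit Mcm5, from 22.1 to 52.1 CPM (0.95). The smallest were those of Slbp, from 41.8 to 56.4 CPM (0.36), and Gins2, from 16.6 to 24.9 CPM (0.39). Pcna stood at 56.4, 78.2 and 52.1 CPM on the 3 days and Tyms at 48.4, 88.0 and 51.5 CPM. For both genes the day 42 value was close to that of day 0 and the day 7 value was above both.

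The mitosis genes were also higher in squamous cells at day 7 as a list, and some members lay below 0. They summed to 1332 CPM on day 0 (1319 to 1344), 1768 on day 7 (1760 to 1775) and 1239 on day 42 (1230 to 1248). All 22 passed the filter, 19 had a ratio above 0 at day 7 against day 0, and the median was 0.47 (0.12 to 0.69). With each cluster given equal weight the mitosis median turned to -0.23, and the replication median was 0.28. No mitosis gene was 2-fold higher (1.15% of all genes were) and none was 2-fold lower (0.971% were). These counts depend on the 10 CPM added to each level: with 1 CPM added, 5 replication and 2 mitosis genes were past 2-fold, where 7.11% of all genes were. The largest ratios were those of Birc5, from 88.1 to 167 CPM (0.85), Ccna2, from 34.1 to 66.5 CPM (0.80), and Plk1, from 14.1 to 31.1 CPM (0.77).

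The members that went against their list were Cenpf (chr1:189640606-189688086, minus strand), a large kinetochore protein, Nusap1, a spindle protein, and Mki67. Cenpf stood at 135 CPM at day 0, 95.2 at day 7 and 104 at day 42. Nusap1 stood at 46.6, 38.0 and 33.9 CPM, and Mki67 at 162, 152 and 117 CPM. These genes were highest at day 0, in contrast to Cdk1, at 54.4, 96.2 and 57.8 CPM, Ccnb1, at 42.7, 77.0 and 46.6 CPM, and Cdc20, at 66.3, 108 and 74.6 CPM, which were highest at day 7. Top2a stood at 144, 170 and 111 CPM.

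At day 42 the squamous replication genes lay slightly above day 0 and the mitosis genes did not. The replication median was 0.20 (0.03 to 0.31) over 17 genes, 13 of them above 0, with Cdc6 below the filter. The mitosis median was -0.03 (-0.27 to 0.12) over 22 genes, 10 of them above 0. No member was past 2-fold in either direction (2.31% of all genes were higher and 1.99% lower). Rrm2 (0.59), Mcm5 (0.38) and Mcm6 (0.36) had the largest replication ratios, and Rrm1 (-0.13) and Pcna (-0.10) the smallest. Among mitosis genes Ccnb2 (0.24), Aurka (0.20) and Birc5 (0.17) stood at the top and Mki67 (-0.44) and Nusap1 (-0.37) at the bottom. Day 42 against day 7 gave -0.51 for replication and -0.47 for mitosis genes. The mitosis value turned to 0.09 with equal weight for each cluster, and the replication value was -0.01 without cluster 3. The comparisons with day 0 share that library.

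Neutrophil marker RNA moved with the same days. All 6 neutrophil markers were detected in squamous cells on each day and they summed to 23.5 CPM at day 0, 1566 at day 7 and 188 at day 42. S100a8 and S100a9, which are among them, are also known in inflamed keratinocytes. Neutrophils themselves held little of either list, 104 CPM of replication and 149 CPM of mitosis genes at day 7. The part of these cells in the squamous levels was not tested.

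**Figure D2:**
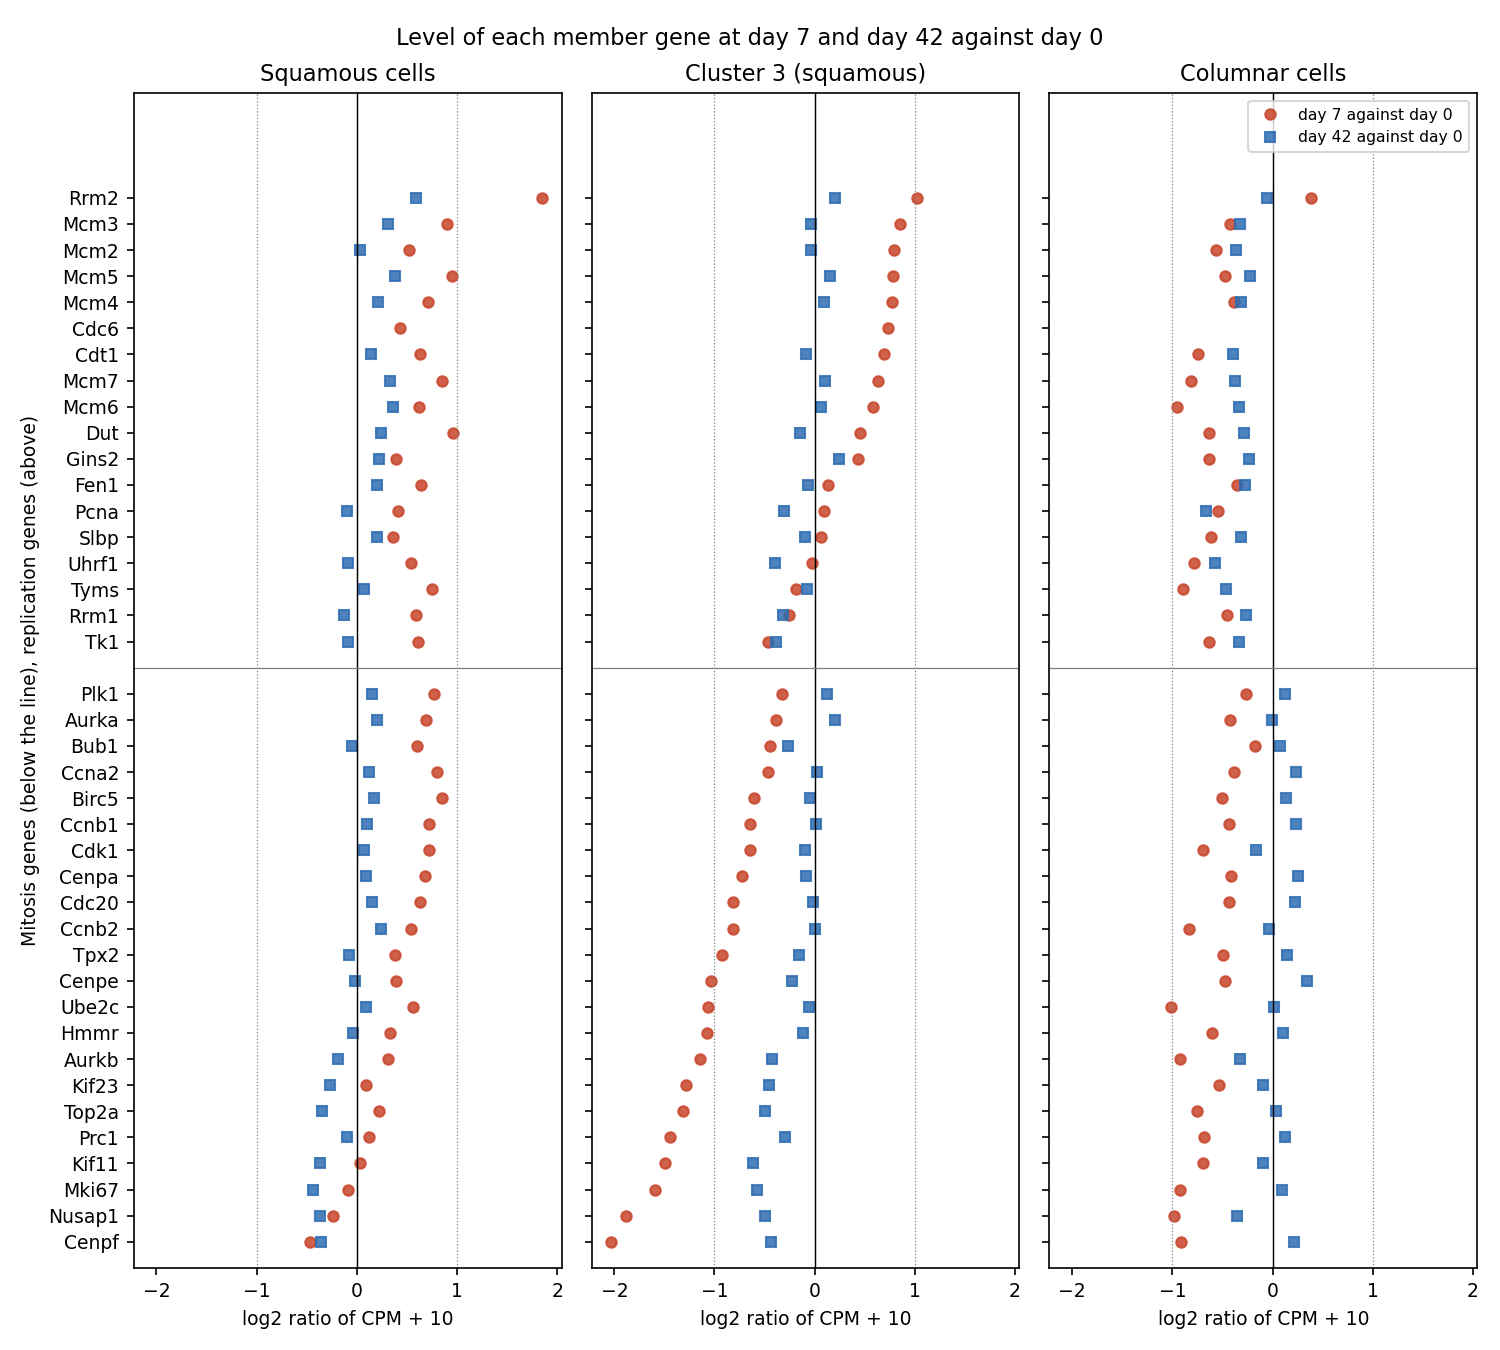
Log2 ratio of each member gene (CPM + 10) on day 7 (circles) and day 42 (squares) against day 0 in squamous cells, in cluster 3 and in columnar cells, for genes that reached 5 CPM in at least 1 library; dotted lines mark 2-fold. Replication genes lie right of 0 at day 7 in squamous cells and left of 0 in columnar cells except Rrm2, and in cluster 3 all 22 mitosis genes lie left of 0 at day 7.

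Within squamous cells, cluster 3 showed the lists parting. It held 269, 1983 and 974 cells, and its replication genes summed to 1408 CPM on day 0 (1371 to 1446), 1779 on day 7 (1768 to 1790) and 1291 on day 42 (1268 to 1314). Its mitosis genes summed to 6887 CPM (6804 to 6970), 3113 (3099 to 3128) and 5800 (5752 to 5849). Mitosis genes made up 83.0% of the member UMIs of the cluster at day 0, 63.6% at day 7 and 81.8% at day 42. Day 7 thus stood apart from both other libraries, in opposite directions for the lists.

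At day 7 against day 0 the replication median in cluster 3 was 0.52 (0.06 to 0.78), with 14 of 18 genes above 0 and 1 at least 2-fold higher (2.18% of all genes were). The mitosis median was -0.98 (-1.32 to -0.64), with all 22 genes below 0 and 11 at least 2-fold lower (2.75% of all genes were), while the median of all genes was -0.07. The lowest ratios were those of Cenpf, from 668 to 156 CPM (-2.03), Nusap1, from 245 to 59.1 CPM (-1.88), and Mki67, from 757 to 244 CPM (-1.60). Kif11, the motor that spreads the spindle poles, went from 172 to 54.4 CPM (-1.50) and Prc1, which bundles the midzone, from 375 to 132 CPM (-1.44). The closest to 0 were Plk1, from 77.7 to 59.8 CPM (-0.33), and Aurka, from 64.2 to 46.8 CPM (-0.39).

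On the replication side the helicase subunits were alike in cluster 3, Mcm2, Mcm3, Mcm4, Mcm5, Mcm6 and Mcm7 having ratios between 0.58 and 0.85. Mcm3 went from 47.6 to 93.6 CPM and Rrm2 from 106 to 225 CPM (1.02). Tk1 (-0.46), Rrm1 (-0.26), Tyms (-0.18) and Uhrf1 (-0.03) lay below 0. Cdc6, the loader of the helicase, was low throughout, at 2.86, 11.4 and 3.13 CPM.

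The day 42 library was close to day 0 in cluster 3, with medians of -0.06 for replication and -0.14 for mitosis genes and no member past 2-fold (1.36% of all genes were higher and 0.549% lower). Against day 7 it had a mitosis median of 0.80, with all 22 genes above 0 and Cenpf, Nusap1, Prc1, Mki67 and Ube2c at least 2-fold higher (1.38% of all genes were). Cells of cluster 3 also differed in depth, with median UMIs of 13704, 25857 and 9242.5. CPM are shares of all RNA and not amounts per cell. The median share of its cells with a count was 77.3% at day 0 and 67.1% at day 7 over mitosis genes. Over replication genes it was 47.0% and 75.0%. Cdk1 was detected in 77.0% and 77.3% of cells, Ccnb1 in 77.0% and 78.9% and Cdc20 in 80.3% and 80.2%. Mki67 was detected in 92.9% and 86.9%, and Top2a in 80.3% and 76.6%. Among cells with 8000 to 20000 UMIs, an alternative chosen after seeing the data, the day 7 medians were 0.50 for replication and -1.15 for mitosis genes. Neutrophil markers summed to 2.34 (3 of 6 at 0), 938 and 110 CPM in cluster 3, and keratinocyte markers to 14339, 20663 and 20501 CPM. Whether the cluster took in different cells on different days was not tested.

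**Figure D3:**
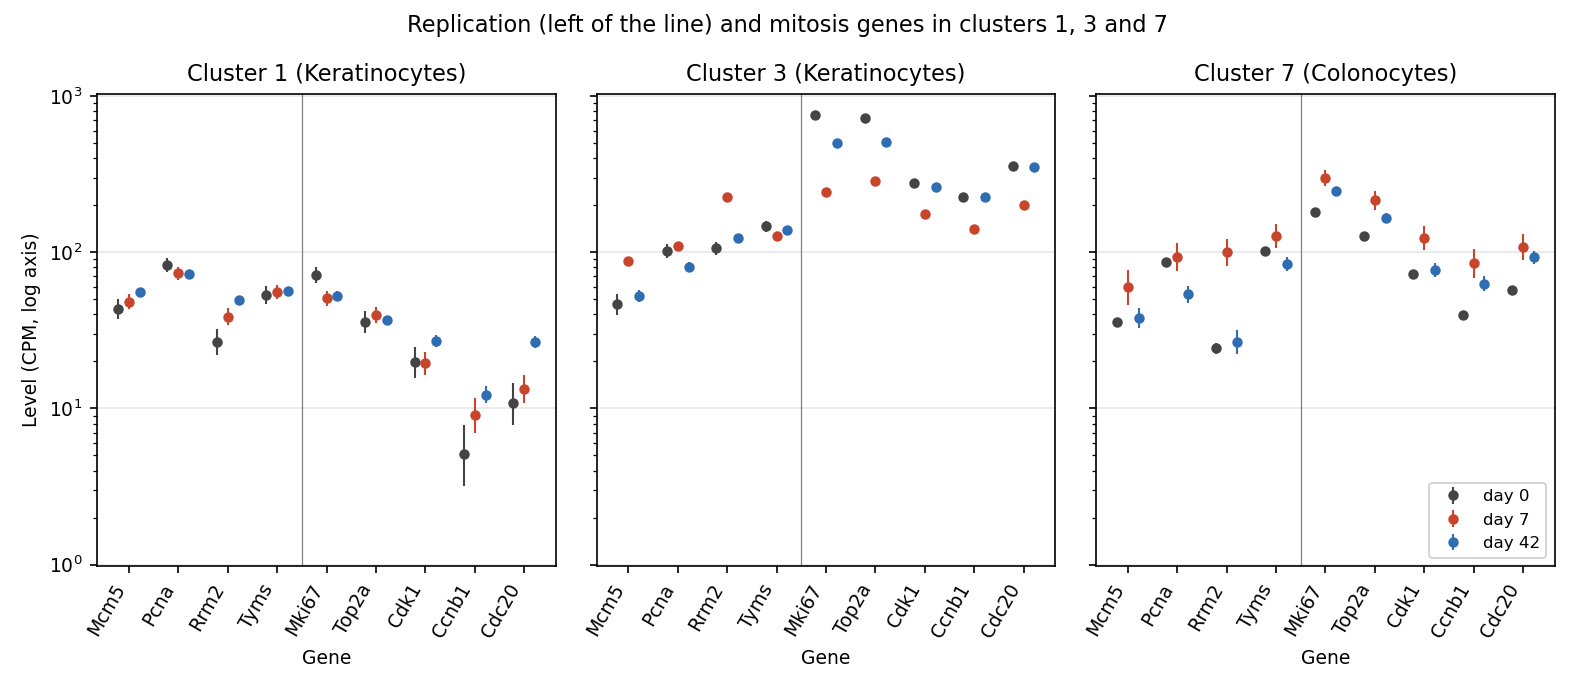
Level (CPM, log axis) of 4 replication genes and 5 mitosis genes in clusters 1, 3 and 7 on each day; bars are 95% Poisson intervals. In cluster 3 the 5 mitosis genes are lowest at day 7 while Rrm2 and Mcm5 are highest, and in cluster 1 Ccnb1 and Cdc20 lie below 30 CPM on every day.

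Squamous cells outside cluster 3 showed a different order of days. Their mitosis genes summed to 623, 731 and 339 CPM and their replication genes to 482, 598 and 552 CPM. At day 7 against day 0 the medians were 0.20 for replication (17 genes) and 0.23 for mitosis genes (22 genes). At day 42 the replication median was again 0.20, while the mitosis median was -0.52 (-0.62 to -0.37) over 20 genes, none of them above 0 and 1 at least 2-fold lower (2.09% of all genes were). The cells lay in different clusters on these days, with 443 cells of cluster 1 at day 0 and 3043 at day 42, and 87 and 2153 of cluster 5. Within single clusters the mitosis median of day 42 against day 0 was 0.16 in cluster 1, 0.21 in cluster 5, 0.02 in cluster 8, -0.03 in cluster 9, -0.08 in cluster 12 and 0.31 in cluster 13. It was -0.02 over 2 genes in cluster 4 and -0.91 in cluster 17, with 162 and 63 cells.

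Cluster 1 held replication genes without a matching level of mitosis genes. Its replication genes summed to 952, 942 and 973 CPM on the 3 days and its mitosis genes to 334, 321 and 401 CPM, so that mitosis genes were 26.0%, 25.4% and 29.2% of member UMIs. The medians at day 7 against day 0 were 0.00 and 0.04, and no member was past 2-fold (0.747% of all genes were higher and 0.542% lower). Pcna stood at 83.3, 73.2 and 72.8 CPM and Tyms at 53.4, 55.8 and 56.1 CPM. Ccnb1 stood at 5.14, 9.08 and 12.2 CPM and Cdc20 at 10.8, 13.4 and 26.7 CPM. Rrm2 was 26.7, 38.7 and 49.7 CPM, with intervals that did not meet between day 0 and day 42. At day 0, 10 cells held more than 50% of the UMIs of 11 of the 22 mitosis genes in this cluster. The same was true of 2 of the 18 replication genes, among them Rrm2, with 50.5% of its 109 UMIs. The cluster held 443, 563 and 3043 cells.

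Cell by cell, every cell was thinned to 1000 UMIs so that shares could be compared at 1 depth, and a cell was counted when it kept 2 or more UMIs of a list. Cells under 1000 UMIs were left out, 34, 468 and 91 of the squamous cells. In squamous cells 14.2% held mitosis UMIs by this count on day 0 (13.1 to 15.5), 27.4% on day 7 (26.4 to 28.3) and 16.3% on day 42 (15.5 to 17.2). For replication UMIs the shares were 12.5%, 24.2% and 14.4%. Neutrophils, which do not divide, gave 1.48% and 1.05% at day 7 at a median of 2585 UMIs, where squamous cells had medians of 9168, 11481 and 6542 UMIs. At day 42 only 45 of 448 neutrophils had 1000 UMIs, and 6.67% of them (1.40 to 18.3) held 2 or more mitosis and 11.1% (3.71 to 24.1) 2 or more replication UMIs. The intervals of those 45 cells take in the squamous shares of day 0 and day 42. Unthinned, the squamous shares were 25.7%, 52.9% and 31.2% for mitosis and 58.9%, 72.6% and 53.7% for replication UMIs.

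Squamous cells rich in mitosis UMIs did not follow the same order. Cells with 5 or more mitosis UMIs of 1000 were 9.35% on day 0 (8.38 to 10.4), 9.76% on day 7 (9.14 to 10.4) and 8.54% on day 42 (7.93 to 9.18), with intervals that overlapped between neighbouring days. In cluster 3 the same count gave 68.0% (62.1 to 73.6), 24.2% (22.3 to 26.1) and 57.8% (54.6 to 60.9). The higher share at day 7 in squamous cells thus lay in cells with 2 to 4 mitosis UMIs.

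Cells were then sorted by which lists they held. In cluster 3, 4.46%, 18.1% and 5.95% of cells on the 3 days held 2 or more replication UMIs without 2 mitosis UMIs. Cells with mitosis UMIs alone were 54.6%, 31.9% and 59.2%, and cells with both were 30.5%, 31.4% and 28.5%. Cells with neither were 10.4%, 18.6% and 6.26%. In cluster 1 replication alone was 18.3%, 16.7% and 19.2% and mitosis alone 3.84%, 4.44% and 6.57%, while 75.2%, 76.4% and 72.1% of its cells held neither.

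**Figure D4:**
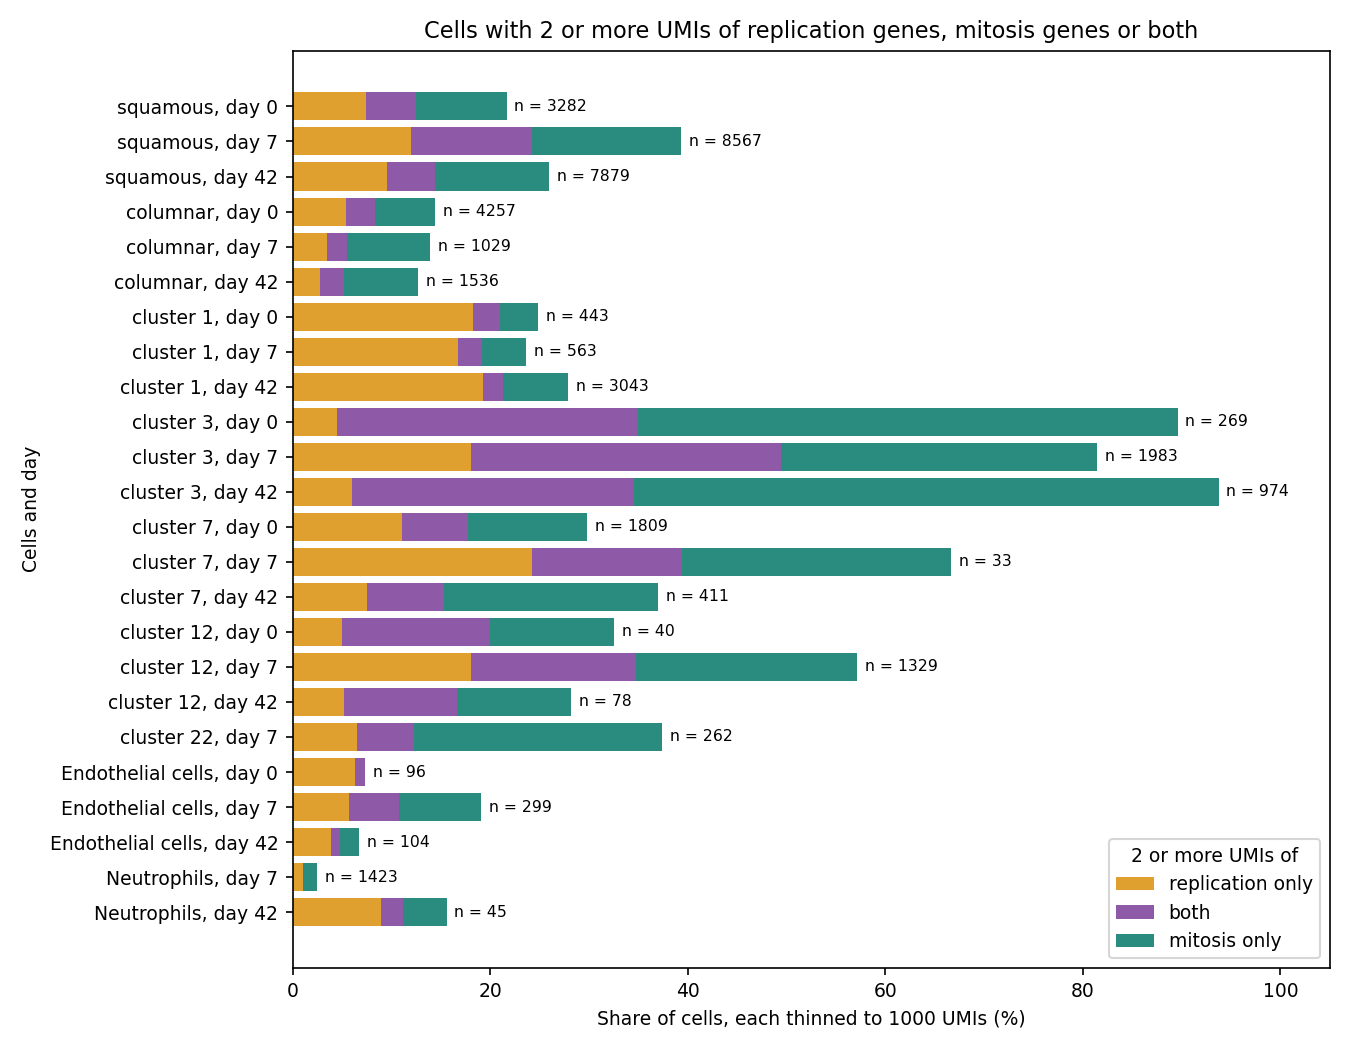
Share of cells, each thinned to 1000 UMIs, with 2 or more UMIs of replication genes only, of both lists, or of mitosis genes only, by group and day; n is the number of cells, and groups under 30 cells are not drawn. Cluster 3 at day 7 has 18.1% of cells with replication UMIs only against 4.46% at day 0, and in cluster 1 replication only, at 18.3%, 16.7% and 19.2%, exceeds the other kinds drawn on all days.

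In the columnar class both lists were lower at day 7 than at day 0. The replication genes summed to 608 CPM on day 0 (601 to 616), 348 on day 7 (336 to 361) and 436 on day 42 (424 to 449). The mitosis genes summed to 968 CPM (959 to 977), 525 (510 to 540) and 1032 (1014 to 1052). At day 7 against day 0 the replication median was -0.61 (-0.74 to -0.45) over 17 genes, with Cdc6 below the filter. The mitosis median was -0.57 (-0.84 to -0.43) over 22 genes, none above 0, and the median of all genes was -0.15. The medians of both lists turned sign without cluster 7 and with equal weight for each cluster, as given below. At least 2-fold lower was 1 member, Ube2c, from 108 to 48.3 CPM (2.03% of all genes were). That count depends on the processing. Without cluster 7 no member was past 2-fold (4.10% of all genes were), and with median-of-ratios size factors no mitosis gene was (6.13%). With the mean of CPM per cell 1 replication and no mitosis gene was (5.35%). Past 2-fold in either direction were 6 replication and 7 mitosis genes with 1 CPM added (15.2% of all genes), 2 and 9 without the 10 cells of each library with most member UMIs (5.83%), 3 and 6 without mitochondrial and ribosomal protein genes in the totals (7.03%) and 2 and 5 among filtered cells (6.72%). In the same cells neutrophil markers went from 0.820 CPM (2 of 6 at 0) to 2234 CPM, keratinocyte markers from 1342 to 3145 CPM and colonocyte markers from 12260.5 to 20253 CPM, and their part was not tested.

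Rrm2 was the only replication gene above 0 in columnar cells at day 7, at 16.1 CPM at day 0, 24.0 on day 7 (20.9 to 27.5) and 15.1 on day 42 (12.9 to 17.6). The lowest replication ratios were those of Mcm6, from 38.6 to 15.2 CPM (-0.95), and Tyms, from 69.9 to 32.9 CPM (-0.90). Beside Ube2c, Nusap1 was low among mitosis genes, from 32.7 to 11.7 CPM (-0.98). Bub1, from 6.11 to 4.27 CPM (-0.18), and Plk1, from 17.9 to 13.2 CPM (-0.26), were closest to 0. At day 7 the 10 richest cells for a gene held more than 50% of its UMIs for 8 mitosis genes (Cenpf, Ube2c, Plk1, Aurka, Kif11, Nusap1, Hmmr and Prc1) and for Cdc6.

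By the thinned count, 8.34%, 5.44% and 5.21% of columnar cells held 2 or more replication UMIs and 9.04%, 10.4% and 9.96% held 2 or more mitosis UMIs, at median depths of 8916.5, 4017 and 5951.5 UMIs. Cells with 5 or more mitosis UMIs were 4.56% on day 0 (3.95 to 5.23), 0.875% on day 7 (0.401 to 1.65) and 4.82% on day 42 (3.80 to 6.01). The day 7 share with 2 or more mitosis UMIs was 3.39% without cluster 22, an alternative added after seeing the data. Among cells with at least 1000 UMIs, 500 genes and under 20% mitochondrial UMIs the mitosis shares were 14.1%, 13.3% and 11.8%, which turned day 0 from the lowest to the highest, and the replication share at day 0 was 13.0%. The median share of mitochondrial UMIs in columnar cells was 16.5%, 10.6% and 11.6% on the 3 days, and its part was not tested.

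The columnar medians differed with and without cluster 7. This cluster, which carried most columnar member UMIs at day 0, had 1809, 33 and 412 cells. Without it the day 7 medians turned to 0.26 for replication and 0.24 for mitosis genes, and with the mean of CPM per cell they were -0.19 and -0.13. With equal weight for each cluster they were 0.18 and 0.60. Rrm2 without cluster 7 went from 3.09 to 14.2 CPM. In the 33 cells of cluster 7 at day 7 the lists summed to 1235 CPM (1168 to 1306) and 2594 CPM (2496 to 2695), above the 875 and 1457 CPM of day 0, and 10 cells held more than 50% of the UMIs of all 40 genes.

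At day 42 the columnar lists parted, with replication genes below day 0 and most mitosis genes above it. The replication median against day 0 was -0.32 (-0.38 to -0.27) with none of 17 genes above 0, and the mitosis median was 0.10 (-0.03 to 0.22) with 15 of 22 above 0. No member was past 2-fold (1.16% of all genes were higher and 0.361% lower). Pcna went from 64.7 to 37.1 CPM (-0.66), Uhrf1 from 30.5 to 17.2 CPM (-0.58), and Cenpe, a kinetochore motor, from 32.7 to 44.3 CPM (0.35). Within cluster 7 alone the medians were -0.11 and 0.41, with Pcna from 86.2 to 53.9 CPM, Cdc20 from 57.1 to 92.9 CPM and Cenpe from 48.1 to 84.3 CPM. Without cluster 7 the replication median turned to 0.14 and the mitosis median was 0.42, and with equal weight for each cluster they were 0.02 and 0.52. From day 0 to day 42 the columnar secretory markers went from 2384 to 5382 CPM and neutrophil markers from 0.820 to 105.2 CPM, and their part was not tested. Day 42 against day 7 gave 0.25 for replication and 0.65 for mitosis genes, with Cenpf, Ube2c and Mki67 at least 2-fold higher (1.04% of all genes were). The replication value turned to -0.27 with equal weight for each cluster, -0.15 without cluster 7 and -0.13 with the mean of CPM per cell. The mitosis value was -0.41, 0.11 and 0.09 under the same settings.

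The secretory colonocytes of cluster 15 had more mitosis RNA at day 42. Their mitosis genes summed to 675 CPM on day 0 (648 to 703) and 1378 on day 42 (1312 to 1446), and their replication genes to 302 and 401 CPM. The mitosis median was 0.77 with all 22 genes above 0 and 4 at least 2-fold higher (1.40% of all genes were), Birc5 (1.23), Cdk1 (1.06), Prc1 (1.06) and Mki67 (1.04). Cells with 2 or more mitosis UMIs were 6.14% at day 0 and 15.4% at day 42. In both libraries 10 cells held more than 50% of the UMIs of all 22 mitosis genes. Between these days secretory markers went from 20799 to 43578 CPM and keratinocyte markers from 992 to 2823 CPM in these cells, and their part was not tested.

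Cluster 22, named colonocytes and with 4, 279 and 5 cells on the 3 days, held at day 7 699 CPM of replication and 1202 CPM of mitosis genes. Cells with 2 or more mitosis UMIs were 30.9% (25.4 to 36.9), and 18.5% of these also held 2 or more replication UMIs. Its markers were mixed, with 10728 CPM of colonocyte, 9957 CPM of keratinocyte and 12496 CPM of neutrophil markers, against 20253, 3145 and 2234 CPM in the columnar class of that day. The keratinocytes of cluster 12 were likewise shallow, at a median of 1672.5 UMIs at day 7, with 6431 CPM of neutrophil markers. Their replication median at day 7 against day 0 was 0.97 with 9 of 18 genes at least 2-fold higher, where 16.0% of all genes were, and the day 0 side rested on 51 cells.

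Outside the epithelium, endothelial cells had more mitosis RNA at day 7. Their mitosis genes summed to 247 CPM on day 0 (202 to 299), 1128 on day 7 (1086 to 1171) and 113 on day 42 (81.3 to 152), and their replication genes to 650, 749 and 303 CPM. At day 7 against day 0 the mitosis median was 1.40 with 18 of 22 genes at least 2-fold higher (5.07% of all genes were), and 1.37 with the 2 genes at 0 UMIs set to the floor of 3 counts. Of the 22 mitosis genes, 12 reached 5 CPM at day 0, and the others passed the filter through day 7 alone. The replication median was -0.00. Ube2c stood at 4.74 CPM on day 0 (2 UMIs, 0.575 to 17.1 CPM) and 109 CPM on day 7 (96.4 to 123). Cenpa, the centromeric histone, stood at 14.2 CPM (5.22 to 31.0) and 85.6 CPM (74.4 to 97.9). For both genes the intervals of the days did not meet. Cells with 2 or more mitosis UMIs were 1.04% of 96 (0.0264 to 5.67), 13.4% of 299 (9.73 to 17.8) and 2.88% of 104 (0.599 to 8.20).

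At day 7 the 10 top cells held more than 50% of the UMIs of all 22 mitosis genes in endothelial cells. Without the 10 cells of each library with most member UMIs the mitosis median was 1.67 and the replication median 0.90. Neutrophil markers in these cells summed to 0, 2866 and 239 CPM and keratinocyte markers to 797, 1933 and 4109 CPM. Their part in the result was not tested.

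Macrophages and other antigen-presenting cells had less of both lists at day 7 than at day 0, with 91 and 278 cells. Replication genes summed to 595 and 198 CPM and mitosis genes to 760 and 140 CPM, with medians of -1.24 and -1.20. At least 2-fold lower were 10 of 17 replication and 14 of 22 mitosis genes (6.92% of all genes were), led by Mki67, from 155 to 20.4 CPM, and Top2a, from 78.8 to 8.29 CPM. Between these days their macrophage or myeloid markers went from 33925 to 14398 CPM, neutrophil markers from 22.9 to 4745 CPM and keratinocyte markers from 155 to 1122 CPM, and the part of these shifts was not tested. At day 0, 10 cells held more than 50% of the UMIs of all 22 mitosis and of 17 of the 18 replication genes.

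T cells had 1175 CPM of mitosis genes at day 0, 428 at day 7 and 898 at day 42. Their mitosis median at day 7 was -1.0, and -0.89 with the 5 genes at 0 UMIs at the floor, with 11 of 22 at least 2-fold lower (3.94% of all genes were). The thinned share of T cells with 2 or more mitosis UMIs was 6.67% of 195 cells at day 0 (3.60 to 11.1) and 6.48% of 108 cells at day 7 (2.65 to 12.9). Neutrophil markers in T cells went from 21.7 to 4471 CPM and keratinocyte markers from 780 to 2366 CPM, and their part was not tested. At day 0, 10 T cells held more than 50% of the UMIs of 21 of the 22 mitosis genes.

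Fibroblasts had little mitosis RNA, 55.7 CPM on day 0 (50.1 to 61.7), 312 on day 7 (287 to 339) and 155 on day 42 (127 to 187). Their mitosis median at day 7 was 0.84 over 21 genes, 6 of them at least 2-fold higher (2.65% of all genes were), and 3.89% of cells held 2 or more mitosis UMIs against 0.534% at day 0. Only 2 of the 22 mitosis genes reached 5 CPM at day 0 against 21 at day 7, so most passed the filter through day 7 alone. On both days 10 cells held more than 50% of the UMIs of all 22 mitosis genes. Fibroblast neutrophil markers went from 5.97 to 3007 CPM and keratinocyte markers from 1421 to 2191 CPM, with fibroblast markers at 27749.7 and 27645 CPM, and their part was not tested. Lymphatic endothelial cells had 34.3, 495 and 213 CPM of mitosis genes, but at day 7 only 0.556% of their cells held 2 or more mitosis UMIs, and the 10 top cells held more than 50% of the UMIs of all 22 genes. The mitosis median of 1.22 at day 7 became 0.39 with the 13 genes at 0 UMIs in a library set to the floor. None of the 22 genes reached 5 CPM in lymphatic cells at day 0.

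In some groups a few genes gave a large part of the mitosis RNA, although every one of the 22 was detected in cluster 14 on each day and in neutrophils at day 7. In cluster 14, named unknown, mitochondrial genes were 51.2%, 52.1% and 41.1% of UMIs and the nuclear RNA Malat1 stood at 21908, 23697 and 43319 CPM. There Mki67 stood at 190, 179 and 189 CPM and Top2a at 142, 177 and 204 CPM, while Cdk1 stood at 12.7, 21.1 and 14.4 CPM. In cluster 3 Cdk1 stood at 279, 175 and 261 CPM beside Mki67 at 757, 244 and 504 CPM. In red blood cells at day 7 Ube2c gave 63.2% of the 171 mitosis UMIs. In neutrophils at day 7 Kif23 gave 20.6% of 627 mitosis UMIs and Slbp 22.1% of 438 replication UMIs.

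Genes outside the 40 with the same tasks were compared in the same way. In squamous cells at day 7 against day 0 the median was 0.50 over 31 of 32 other replication genes, all above 0, led by Hells, a chromatin remodeller, from 26.8 to 63.0 CPM, and Gmnn, the inhibitor of Cdt1, from 33.0 to 72.5 CPM. Cdc7 (0.09) and Pola1 (0.08) had the smallest ratios. For 43 other mitosis genes the median was 0.24, with 39 above 0, from Cks1b (0.87) and Cdca8 (0.69) down to Anln (-0.11) and Aspm (-0.37). In columnar cells the medians were -0.52 over 28 and -0.48 over 41 genes, with Rfc3 (-0.96) and Spc24 (-1.01) lowest. In cluster 3 the other mitosis genes had a median of -0.88, all 43 below 0 and 15 at least 2-fold lower (2.75% of all genes were), with Aspm (-1.98) and Anln (-1.61) lowest, while the other replication genes had 0.10.

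Regulators of the cycle lay on both sides of 0. In squamous cells at day 7 the 23 regulators had a median of 0.21, from the transcription factor Mybl2, from 4.24 to 17.2 CPM (0.93), and the kinase Cdk6, from 58.6 to 101 CPM (0.70), down to the retinoblastoma relative Rbl2 (-0.52) and cyclin Ccnd2, from 349 to 176 CPM (-0.95). Cyclin Ccnd1 was higher at day 42 in squamous cells, from 151 to 267 CPM (0.79), and in columnar cells at day 7 and day 42, from 48.6 to 84.1 and 91.3 CPM (0.68 and 0.79). Wee1, the kinase that holds back Cdk1, was lower in columnar cells at day 7, from 33.6 to 12.8 CPM (-0.94).

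The median of the inhibitors at day 7 was -0.18 among squamous cells, and among columnar cells it was -0.05. Cdkn1b was lower in both, from 67.2 to 42.9 CPM (-0.55) and from 68.5 to 39.3 CPM (-0.67). In squamous cells at day 42 Cdkn2b, an inhibitor of Cdk4 and Cdk6, went from 11.3 to 39.0 CPM (1.20) and its neighbour Cdkn2a from 0.118 to 8.72 CPM (0.89).

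Across clusters with at least 50 cells the levels of members were correlated, within and between the lists. The median Pearson r of log2(CPM + 10) between mitosis genes was 0.93 over 21 clusters at day 0, 0.89 over 20 at day 7 and 0.88 over 19 at day 42. Between replication genes it was 0.76, 0.87 and 0.70, and between the lists 0.68, 0.80 and 0.59. Clusters of 1 day share a library and these values are a description. At day 0, 4 replication genes were more like the mitosis list than their own: Tk1 (median r of 0.90 against 0.73), Rrm2 (0.86 against 0.80), Uhrf1 (0.82 against 0.78) and Rrm1 (0.81 against 0.76). At day 7 Tk1, Uhrf1 and Rrm1 were more like their own list, and for Rrm2 both values were 0.82. Cdc6 was slightly more like the mitosis list at day 7 (0.740 against 0.734). At day 42 Uhrf1 was again more like its own list, and Rrm1 barely so (0.750 against 0.745). More like the mitosis list at day 42 were Tk1 (0.80 against 0.69), Rrm2 (0.71 against 0.61), Tyms (0.76 against 0.73) and Slbp (0.55 against 0.53). The genes least like their own list were Cdc6, with a median r of 0.55, 0.73 and 0.36, and Slbp, with 0.68, 0.71 and 0.53. Those most like it were Birc5 (0.95) at day 0, Mcm7 (0.94) at day 7 and Ccnb2 (0.90) at day 42.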

How the data were processed

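Single-cell 3' RNA was measured in 3 libraries, 1 per day, each from 5 pooled mice. The deposited count table holds UMI counts of 31053 genes in 37080 cells, and the authors' cell table gives the cluster and the name of each cell. Cell Ranger 3.0.2 and mm10 are named in the submitters' processing notes. How the clusters were made is not given in the sources used here. A size factor ratio per cell in the authors' cell table was deposited too and was not needed. Counts were summed per group and library and divided by the group's total (CPM). The log2 ratio used a pseudocount of 10 CPM, genes that reached 5 CPM in at least 1 of the libraries and groups with at least 50 cells in both. A gene was called at 2-fold. Cells were thinned to 1000 UMIs with seed 1, and doublets were not removed. With 1 library per day no test was run. The member genes and the other gene lists were chosen with earlier results of these data known. Genes named in the text are 9 set members (Mcm5, Pcna, Rrm2, Tyms, Mki67, Top2a, Cdk1, Ccnb1 and Cdc20), the members with the highest and lowest ratios of a comparison, those past 2-fold, and some singled out after their values were seen. The steps were tested on simulated data. The tools were scanpy 1.11.5, scipy 1.17.1, matplotlib 3.10.9, pandas 2.3.3 and numpy 2.4.6 under Python 3.11.15.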

Additional observations from a re-analysis of the deposited data

Results flagged for a closer look

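Medians of the squamous and columnar classes were set side by side. The median replication ratio at day 7 against day 0 was 1.24 higher on the log2 scale in squamous than in columnar cells, and that of the mitosis genes was 1.03 higher. At day 42 against day 0 the replication median was 0.52 higher in squamous cells. At day 42 against day 7 the squamous minus columnar difference was -0.76 for replication and -1.12 for mitosis genes. These values rest on which clusters are counted and how they are weighted. Without clusters 3 and 7 the day 7 medians against day 0 were 0.20 for replication and 0.23 for mitosis genes in squamous cells, and 0.26 and 0.24 in columnar cells. With equal weight for each cluster the mitosis medians were -0.23 and 0.60, so the order of the classes turned. Each class was 1 library per day, the 3 comparisons share libraries, and the difference was not tested.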

How the results depend on the processing

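No paired analysis was possible because the labels give 1 library per day and no replicate numbers, and for the same reason no replicate was left out. The medians and counts past 2-fold below are given in the order squamous then columnar where both are named. As reported, these counts were at most 3. Beside a count, the share of all genes past 2-fold in either direction under the same setting stands in parentheses.

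With equal weight for each cluster, 7 medians turned sign: squamous mitosis at day 7 (-0.23, against day 0) and for day 42 against day 7 (0.091), columnar replication at day 7 (0.18) and day 42 (0.023) against day 0 and for day 42 against day 7 (-0.27), and columnar mitosis at day 7 against day 0 (0.60) and for day 42 against day 7 (-0.41). Squamous replication was 0.28 and -0.35, columnar mitosis at day 42 against day 0 was 0.52, and counts that had been above 0 were 0 for squamous replication at day 7 against day 0 (1.41%) and day 42 against day 7 (0.917%) and for columnar mitosis at day 42 against day 7 (1.79%).
Without clusters 3 and 7, columnar medians turned sign for replication and mitosis at day 7 against day 0 (0.26 and 0.24) and for replication at day 42 against day 0 (0.14) and day 7 (-0.15). Columnar mitosis was 0.42 and 0.11 at day 42. Squamous replication was 0.20 at day 7 and -0.0074 at day 42 against day 7, and squamous mitosis was -0.52 and -0.70 at day 42 against day 0 and day 7. Counts were 0 at day 7 against day 0 (1.24% and 4.10%) and at day 42 against day 7 (5.40% and 2.09%), except that 2 squamous mitosis genes were past 2-fold in the latter. At day 42 against day 0, 1 squamous mitosis gene was (4.74%).
With the mean of CPM per cell, columnar replication at day 42 against day 7 turned to -0.13 and columnar medians at day 7 were -0.19 and -0.13, with columnar mitosis at 0.094 at day 42 against day 7. Squamous medians were 0.52 for replication at day 7, and -0.44 and -0.31 at day 42 against day 7. Columnar counts were 1 for replication and 0 for mitosis at day 7 against day 0 (5.35%) and day 42 against day 7 (2.81%).
With a pseudocount of 1 CPM the squamous replication medians were 0.87 and -0.70, and the columnar ones -0.44 and 0.37 at day 42 against day 0 and day 7. Columnar mitosis was 0.91 at day 42 against day 7. Counts at day 7 against day 0 were 5 and 6 for replication and 2 and 7 for mitosis (7.11% and 15.2%). Mitosis counts were 1 and 8 for day 42 against day 7 (7.60% and 7.01%).
With size factors, columnar medians at day 7 were -0.43 and -0.42 and mitosis at day 42 against day 7 was 0.53, with mitosis counts of 0 (6.13%) and 1 (2.53%). Without mitochondrial and ribosomal protein genes in the totals, columnar replication was -0.77 and -0.44 at day 7 and day 42, with 3 replication and 6 mitosis genes past 2-fold at day 7 (7.03%). Without the 10 cells of each library with most member UMIs, columnar mitosis was -0.91 at day 7 and 0.88 at day 42 against day 7, columnar replication at day 42 against day 7 was 0.37, with 9 mitosis and 2 replication genes past 2-fold at day 7 (5.83%) and 7 mitosis genes at day 42 against day 7 (2.49%).
Among cells with at least 1000 UMIs, 500 genes and under 20% mitochondrial UMIs (7306, 11380 and 9493 cells), columnar replication at day 42 was -0.45, and 2 replication and 5 mitosis genes were past 2-fold at day 7 (6.72%). Columnar mitosis shares were then 14.1%, 13.3% and 11.8%, and the replication share was 13.0% at day 0. Scrublet's own threshold marked 453, 0 and 294 cells. Without the top 5% of its scores (552, 719 and 584 cells), columnar replication at day 42 was -0.43, columnar mitosis at day 42 against day 7 was 0.57, and 2 mitosis genes were past 2-fold at day 7 (5.83%) and 0 at day 42 against day 7 (2.65%).

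At a minimum of 1 UMI the squamous shares at day 0, 7 and 42 were 31.5%, 47.7% and 34.8% for replication and 20.1%, 41.8% and 25.6% for mitosis, and the columnar shares 23.5%, 23.0% and 17.6%, and 15.8%, 22.8% and 16.4%. At 5 UMIs they were 1.46%, 2.43% and 1.38%, and 9.35%, 9.76% and 8.54%, and for columnar cells 0.916%, 0.0972% and 0.195%, and 4.56%, 0.875% and 4.82%. Thinned to 2000 UMIs they were 23.2%, 41.2% and 27.8%, and 17.3%, 37.5% and 21.6%, and for columnar cells 17.8%, 14.5% and 13.8%, and 13.0%, 16.4% and 15.9%.
Of the alternatives chosen after seeing the data, leaving out cluster 12 gave squamous shares of 22.3% and 25.2% at day 7. Leaving out cluster 22 gave columnar shares of 3.13% and 3.39% at day 7, a replication median of 0.35 at day 42 against day 7, with 1 replication and 6 mitosis genes past 2-fold at day 7 (5.57%). In cells of cluster 3 with 8000 to 20000 UMIs, 12 mitosis genes were past 2-fold at day 42 against day 7 (2.01%) in place of 5 (2.09%).
For the class results, 88 medians stayed inside the reported interval over genes, 32 moved out of it and 12 turned sign. Of the counts, 100 were equal or close to the reported count and 32 were not. Of the shares, 28 stayed inside the reported interval and 44 did not. Some settings could change little, as where all genes of a list had passed the filter already. The causes of the shifts were not tested. The spread between mice is not measured in these pools, and genes of a few UMIs, as in endothelial and lymphatic cells, rest on few cells.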

Other observations

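In squamous cluster 3 the inhibitors Cdkn2c, from 61.9 to 18.1 CPM, and Cdkn2d, from 136 to 48.5 CPM, and the transcription factor Foxm1, from 56.4 to 19.5 CPM, were more than 2-fold lower at day 7 than at day 0, while Cdk6 was higher, from 75.1 to 164 CPM. These genes were singled out after their values were seen.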
